A study of Mus musculus with 8 samples.

Results

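The late neutrophil granule genes described here are S100a8, S100a9, Ngp, Camp, Ltf, Lcn2, Retnlg and Chi3l3, 8 genes chosen by symbol from the 38172 rows of the deposited table. Each symbol matched 1 row, and all 8 were among the 18318 rows that passed the filter on low values, which asked for 10 or more scaled reads in 2 or more of the biological replicates. The samples are hematopoietic stem cells from the bone marrow of C57BL/6 mice of 4 months (young) or 24 months (old), and the design text calls the mice wild type; no other treatment or allele is named for either age. Sorting took the SP-KSL-CD150+ fraction: dye-effluxing side population cells positive for Kit, Sca-1 and CD150 and negative for mature lineage antigens. Polyadenylated RNA was sequenced from 2 biological replicates per age, numbered 13 and 14 at each age, with 2 technical libraries each. The number of animals behind a replicate is not labelled, so p-values measure only the spread between these samples.

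Neutrophils make their granules in a fixed order. Promyelocytes fill primary granules with myeloperoxidase and serine proteases, and later stages fill secondary and tertiary granules with lactoferrin, cathelicidin and lipocalin under the transcription factor C/EBP epsilon. The calcium-binding pair S100A8 and S100A9 accumulates in the cytosol over the same late stages. These transcripts are textbook markers of maturing neutrophils and not of stem cells, and the lineage antibodies of such sorts are meant to remove the cells that carry them.

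The values used are the authors' scaled reads, with the 2 technical libraries behind a replicate averaged. Each library's values summed to between 40.7 M and 44.2 M. The genes of the sort were abundant and varied little beside the granule genes. Kit, the stem cell factor receptor, was 56382 and 54959 in young 13 and 14 and 57824 and 63950 in old 13 and 14. Ly6a (Sca-1) varied more, with 2621, 2573.5, 3519 and 5566 in the same order. Slamf1 (CD150) had 1597, 1735.5, 3175 and 3083. All 10 stem cell markers listed had both old replicates above both young replicates, as had 24.7% of tested genes, and 2 of the 10 rose in limma (Slamf1, adjusted p = 0.0226, and Procr, named after its values were seen, 0.0483). Among defining neutrophil markers Ly6g, chosen after its values were seen, had 4 (young 13), 7 (young 14), 0 (old 13) and 1.5 (old 14). It did not pass the filter on low values. Other markers of that list had higher values, such as Cd177 with 144, 447.5, 22.5 and 215.5 in the same order. Mmp9 had 35, 349, 4.5 and 38. Of the 11 tested genes of that list 10 had a fitted change below 0, as had 43.5% of all tested genes. In limma 0 of them passed, against 2.55% of all tested genes. The list includes S100a8, S100a9, Ngp, Camp and Ltf of the 8 granule genes, so its counts are not separate from theirs.

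All 8 granule genes were lowest in old 13 and highest in young 14, and for most of them the old replicates differed by a larger factor than the means of the ages. Across all tested genes 6.92% had old 13 lowest and young 14 highest. Summed, the 8 genes gave 5700 (young 13), 14137 (young 14), 402 (old 13) and 6353 (old 14). In the sum old 14 thus exceeded young 13, and the ages overlapped. Chi3l3, with 510 in young 13 and 1904.5 in old 14, added most to that excess. Taken singly, 5 of the 8 genes had both old replicates below both young ones, as had 17.4% of tested genes. Fewer cells of a type and less RNA per cell cannot be told apart in such bulk samples.

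**Figure D1:**
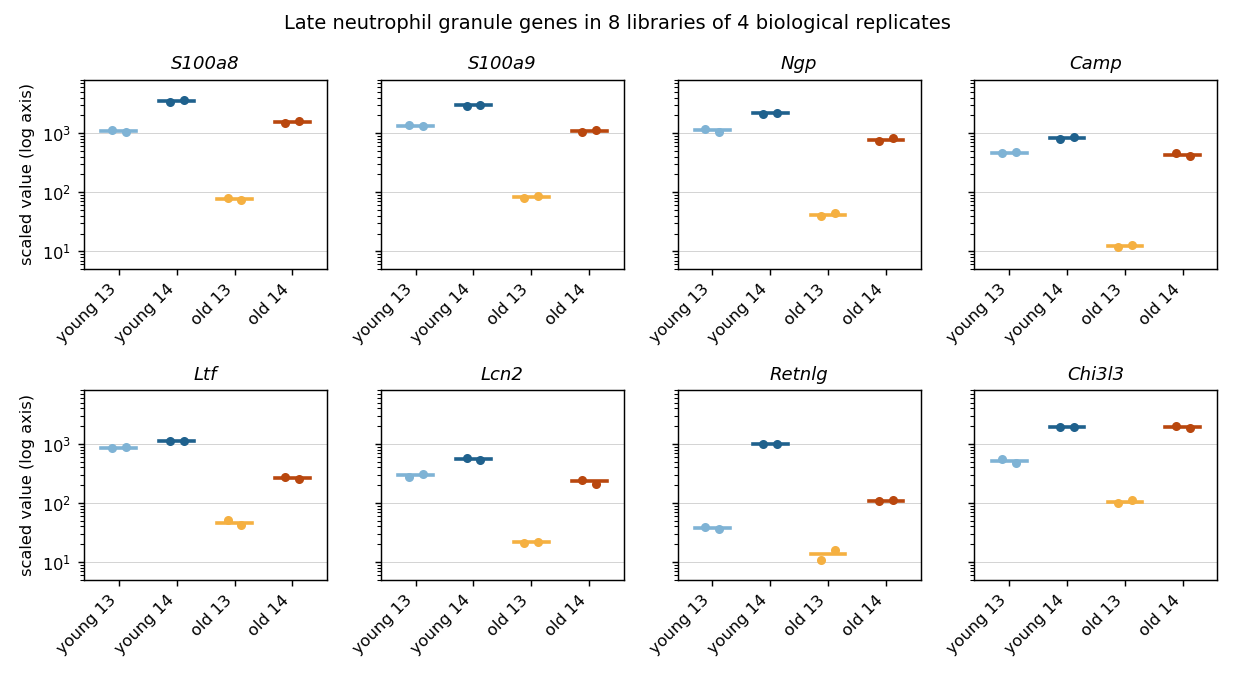
Scaled value (log axis) of each late neutrophil granule gene in the 4 biological replicates; points are the 2 technical libraries and bars their mean. Old 13 is lowest and young 14 highest in all 8 panels, and technical points lie within 1.45-fold of each other.

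The technical libraries of a replicate agreed closely. Over 32 pairs, 8 genes in 4 replicates, the median fold between the technical libraries was 1.07. The widest pair was Retnlg in old 13, with 11 and 16 (1.45-fold). In the first library of old 13 a read was worth about 1.75 units, so its 8 values rest on about 6 reads for Retnlg and 7 for Camp up to 56 for Chi3l3. The biological replicates of 1 age differed far more. Old 14 exceeded old 13 by between 5.74-fold (Ltf) and 34.3-fold (Camp), whereas 90% of all tested genes lay within 1.69-fold between those replicates. A rise of at least 10-fold from old 13 to old 14 was found in 17 tested genes, or 0.0928%, and 6 of those were S100a8, S100a9, Ngp, Camp, Lcn2 and Chi3l3. Young 14 exceeded young 13 by between 1.32-fold (Ltf) and 26.8-fold (Retnlg), and 90% of tested genes lay within 1.6-fold.

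S100a8 and S100a9 encode the subunits of calprotectin, a calcium- and zinc-binding complex of the neutrophil cytosol, and were the most abundant of the 8 genes per length. S100a8 (chromosome 3 from 90472993 to 90473956, plus strand, mm9) had 1092 (young 13), 3535 (young 14), 77 (old 13) and 1547 (old 14). Old 14 lay above young 13, so the ages overlapped. S100a9 (chromosome 3 from 90496555 to 90499613, minus strand), whose row starts 22.6 kb after that of S100a8 ends, was 1326, 2973.5, 84 and 1085 in the same order. Here both old values lay below both young ones, old 14 by a factor of 1.22 from young 13.

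The promoter sequences of 6 members are shown because they hold a whole match to a C/EBP or TATA motif before the start; those of Camp and Chi3l3 do not. Each covers the 250 bases before the RefSeq gene start (GRCm38.p6, gene strand, 5′ to 3′). The windows are chr9:110419558-110419807 (plus strand) for Ngp, chr9:111019042-111019291 (plus) for Ltf, chr2:32387740-32387989 (minus) for Lcn2, chr16:48872358-48872607 (plus) for Retnlg, chr3:90668821-90669070 (plus) for S100a8 and chr3:90695722-90695971 (minus) for S100a9. Capitals mark matches to the C/EBP motif TTGCNNAA on either strand and to the TATA box TATAAA (in S100a9 the latter lies after the start).
Ngp: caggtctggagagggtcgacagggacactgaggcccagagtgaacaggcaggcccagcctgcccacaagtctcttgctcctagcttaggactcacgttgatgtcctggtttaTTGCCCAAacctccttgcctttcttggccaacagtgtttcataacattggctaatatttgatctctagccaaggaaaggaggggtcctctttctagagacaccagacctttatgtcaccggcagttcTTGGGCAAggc
Ltf: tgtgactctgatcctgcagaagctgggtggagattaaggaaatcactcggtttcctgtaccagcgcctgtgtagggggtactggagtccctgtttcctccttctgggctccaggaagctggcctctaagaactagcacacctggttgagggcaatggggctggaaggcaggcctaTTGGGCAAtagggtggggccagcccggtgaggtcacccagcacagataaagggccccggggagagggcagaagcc
Lcn2: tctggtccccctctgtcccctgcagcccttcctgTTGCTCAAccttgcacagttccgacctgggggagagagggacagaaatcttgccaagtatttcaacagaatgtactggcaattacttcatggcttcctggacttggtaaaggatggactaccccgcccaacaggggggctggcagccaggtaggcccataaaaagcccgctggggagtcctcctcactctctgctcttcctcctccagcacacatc
Retnlg: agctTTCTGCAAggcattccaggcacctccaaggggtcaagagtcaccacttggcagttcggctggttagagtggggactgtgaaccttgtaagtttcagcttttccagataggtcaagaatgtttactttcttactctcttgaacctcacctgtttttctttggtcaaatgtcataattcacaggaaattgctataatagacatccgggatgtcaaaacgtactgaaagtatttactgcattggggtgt
S100a8: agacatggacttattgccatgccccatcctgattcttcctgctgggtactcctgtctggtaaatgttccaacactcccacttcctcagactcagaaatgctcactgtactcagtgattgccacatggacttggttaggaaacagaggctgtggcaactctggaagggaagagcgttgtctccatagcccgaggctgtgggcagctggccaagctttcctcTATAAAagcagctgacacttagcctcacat
S100a9: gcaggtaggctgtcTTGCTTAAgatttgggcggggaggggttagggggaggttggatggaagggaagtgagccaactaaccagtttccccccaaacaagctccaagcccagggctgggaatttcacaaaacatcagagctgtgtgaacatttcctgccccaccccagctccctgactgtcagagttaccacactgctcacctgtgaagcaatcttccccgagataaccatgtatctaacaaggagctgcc
Motifs were searched on both strands in windows of 300 bases, 250 before and 50 after the start. TTGCNNAA was found in 5 of the 8 windows (S100a9, Ngp, Ltf, Lcn2 and Retnlg) and in 10.8% of the 32851 windows of the RefSeq table. Ngp held 2 matches, and its match from -11 to -4 had the same letters, TTGGGCAA, as the match of Ltf from -75 to -68 (-1 is the last base before the start). TATAAA was found in 3 windows (S100a8, S100a9 and Chi3l3) and in 13.6% of all, and in S100a8 it lay from -30 to -25. GAGGAA, the core bound by PU.1, was found in 3 (S100a8, Ltf and Lcn2) and in 28.3% of all, and AGGAAGTG, an ETS-type core with its flank, in 2 (S100a8 and Chi3l3) and in 4.07%. The match of AGGAAGTG in S100a8 overlaps 1 of its GAGGAA matches. These matches describe letters only.

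Ngp, Camp, Ltf and Lcn2 encode contents of secondary granules, and in each of them both old replicates lay below both young ones. Ngp, a granule protein with a cathelin-like domain (chromosome 9 from 110322312 to 110325516, plus strand, mm9), had 1112.5 (young 13), 2170 (young 14), 42 (old 13) and 779.5 (old 14). Camp, the precursor of the antimicrobial cathelicidin peptide (chromosome 9 from 109749891 to 109751970, minus strand), was 466.5, 836.5, 12.5 and 429. The distance between young 13 and old 14 was 1.09-fold for Camp and 1.43-fold for Ngp, against 34.3-fold and 18.6-fold between the old replicates. For Camp this distance was smaller than the 1.13-fold between its technical libraries in old 14.

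Ltf, the iron-binding lactoferrin (chromosome 9 from 110921796 to 110945270, plus strand), had 861 (young 13), 1135 (young 14), 46.5 (old 13) and 267 (old 14). It had the widest gap between the ages, 3.22-fold between young 13 and old 14, and its young replicates differed by only 1.32-fold. Lcn2, a lipocalin that withholds iron from bacteria by binding their siderophores (chromosome 2 from 32240157 to 32243259, minus strand), was 294, 557.5, 21.5 and 231. Its gap between young 13 and old 14 was 1.27-fold. Camp, Ngp and Ltf lie on chromosome 9 within 1.2 Mb.

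Retnlg and Chi3l3, like S100a8, had old 14 above young 13. Retnlg, a resistin-like secreted protein (chromosome 16 from 48872721 to 48874611, plus strand), had 37.5 (young 13), 1004 (young 14), 13.5 (old 13) and 109.5 (old 14), so a single replicate was high. Chi3l3, now named Chil3, a chitinase-like lectin that monocytes and macrophages also make (chromosome 3 from 105950472 to 105970482, minus strand), was 510, 1925.5, 105 and 1904.5. Young 14 and old 14 differed by 1.01-fold in Chi3l3, less than its technical libraries did in old 14 (1.08-fold). The close paralog Chi3l4, named outside the rule after its values were seen, was between 0.5 and 1.5 in every replicate; how reads shared by both were assigned is not stated.

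In limma, fitted over all 18318 tested genes with Benjamini-Hochberg adjustment, 0 of the 8 genes passed an adjusted p under 0.05, against 2.55% of all tested genes, of which 0.54% were lower and 2.01% higher in old cells. At an unadjusted p under 0.05, 4 of the 8 (S100a9, Ngp, Ltf and Lcn2) lay lower in old cells, against 5.08% of tested genes, and with limma-voom 5 did and 0 passed after adjustment. All 8 fitted changes were below 0, as were 43.5% of all tested genes, and the median log2 fold change on the log2(value + 0.5) scale was -2.61, beside 0.04 over all tested genes. A log2 fold change of -2 or lower was fitted for 7 of the 8 and for 0.311% of tested genes. Both old replicates lay below both young replicates in 5 of the 8 and in 17.4% of tested genes, and 5 had the order old 13, old 14, young 13, young 14, which 3.55% of tested genes had. The smallest adjusted p, 0.0806, belonged to Ltf, with 998 ± 193.7 in young and 156.8 ± 155.9 in old cells (SD, n = 2 per age, limma) and a log2 fold change of -3.14 (SE 0.70). For Ngp the means were 1641 ± 747.8 and 410.8 ± 521.5, the log2 fold change -3.09 (SE 1.17) and the adjusted p in limma 0.289. S100a8 had means of 2314 ± 1727 and 812 ± 1039, a log2 fold change of -2.50 (SE 1.25) and an adjusted p of 0.46 in limma. Chi3l3 had the smallest fitted change, -1.15 (SE 1.24, adjusted p = 0.772 in limma). An exact permutation test of 2 against 2 replicates cannot give a two-sided p below 0.33.

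The fitted changes moved with single replicates. Without old 13, the median over the 8 genes was -0.82, and Chi3l3 turned to 0.94. Without old 14 the median was -4.48. Without young 14 it was -2.09, and Retnlg turned to 0.05. Without young 13 it was -3.35, and Retnlg passed the test (adjusted p = 0.0464 in limma), the only member to do so with a replicate left out. Ltf kept a log2 fold change of -1.89 or lower in all 4 of these fits, none of which it passed (adjusted p 0.0856 to 0.169 in limma). With the replicate number as a block, all 8 genes passed in limma as lower in old cells, as did 5.83% of tested genes; the labels do not say that 13 and 14 mark a shared batch, and there are only 2 of each.

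**Figure D2:**
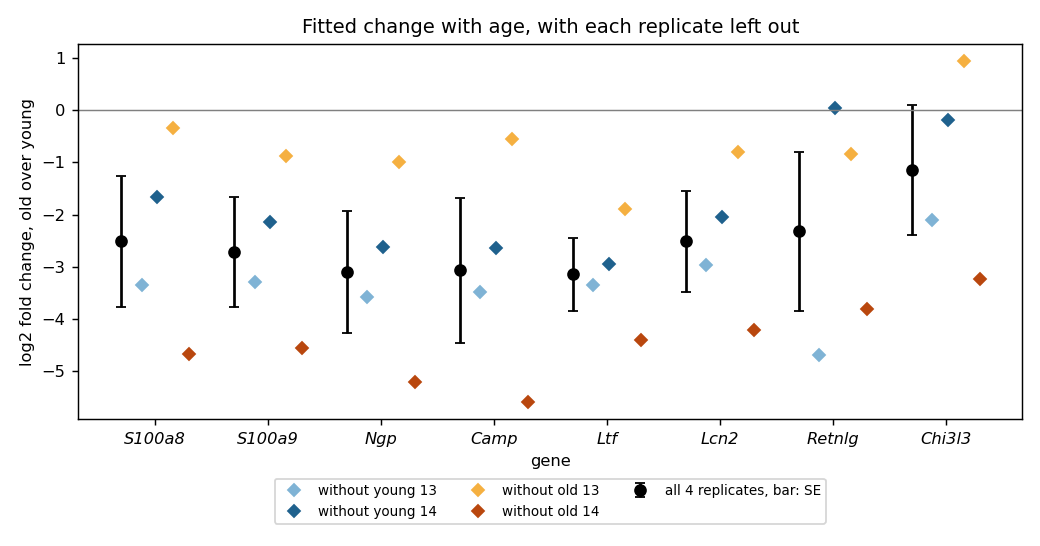
Fitted log2 fold change of old over young cells for each gene, with all 4 replicates (black, bar: SE) and with each replicate left out (diamonds). Leaving out old 13 moves the points of all genes but Retnlg closest to or above 0, and Retnlg lies at 0.05 without young 14.

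The authors' deposited table marked 7 of the 8 genes as lower at 24 months, all but Chi3l3, and 5.82% of the 22284 genes given an FDR there. In the authors' deposited table Ltf had a log2 fold change of -2.72 and an FDR of 1.1e-65, Retnlg -3.14 and 6.23e-63, and Ngp -2.05 and 3.48e-42. Chi3l3 had -0.336 and an FDR of 0.516 in the authors' deposited table. How the technical libraries entered that comparison is not given in the sources used here. When all 8 libraries were entered in limma as if they were independent, 1 of the 8 genes passed, Ltf, with an adjusted p of 0.00597 in limma; 7.97% of tested genes were then called lower in old cells.

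Per length the 8 genes did not keep fixed ratios between replicates. The FPKM of S100a8 had 56.1 (young 13), 182 (young 14), 3.96 (old 13) and 79.5 (old 14). Relative to it the FPKM of Retnlg had 0.0221 (young 13), 0.183 (young 14), 0.113 (old 13) and 0.0456 (old 14), a range of 8.27-fold. The FPKM of Ltf relative to S100a8 was 0.113, 0.0458, 0.0862 and 0.0246 in that order, a range of 4.57-fold, and was higher in the number 13 replicate of each age. Chi3l3 relative to S100a8 was 0.119 and 0.139 in young 13 and 14 and 0.347 and 0.313 in old 13 and 14, with no overlap between the ages. Ngp did not overlap either, in the other direction, with 0.343 and 0.206 in young 13 and 14 and 0.183 and 0.169 in old 13 and 14. The ratios of the remaining genes overlapped, and no ratio was tested. When the labels of 2 against 2 replicates are exchanged, no overlap in either direction has a share of 0.33. Non-overlap of a ratio thus carries little weight here. S100a9 (1.73-fold), Lcn2 (1.87-fold) and Ngp (2.02-fold) varied least against S100a8. S100a8 and S100a9 together held between 66% and 67.6% of the summed FPKM of the 8 genes in every replicate, while that sum ranged from 11.2 in old 13 to 450 in young 14.

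**Figure D3:**
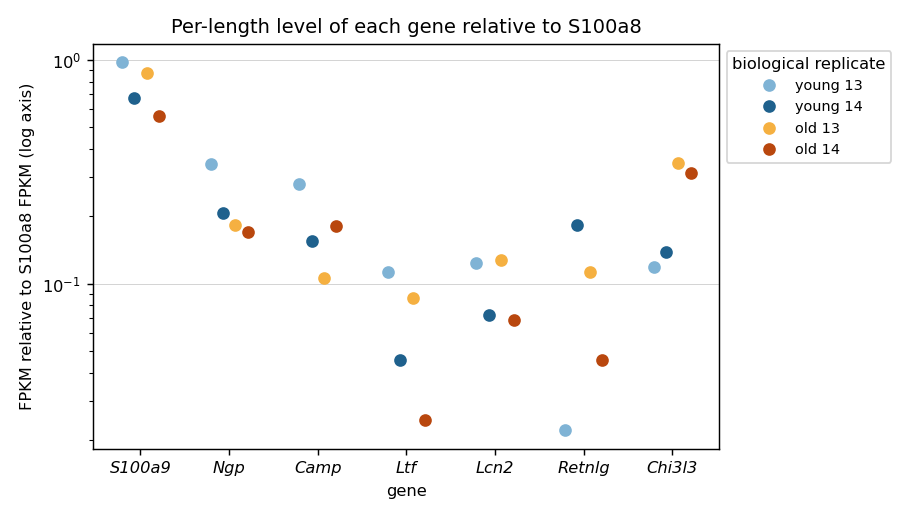
FPKM of each gene divided by the FPKM of S100a8 in the same replicate (log axis), with 1 point per biological replicate. The points of Retnlg spread over 8.27-fold and those of S100a9 over 1.73-fold. Both old points of Chi3l3 lie above both young ones, and both old points of Ngp lie below both young ones. No ratio was tested.

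The genes whose profile over the 4 replicates lay nearest to the mean profile of the 8 included further neutrophil genes such as Cd177 and Mmp9. Among 14499 genes with a mean value of at least 50, distance was taken between centred log2(value + 0.5) profiles, and the median distance was 3.88. The nearest, at 0.75, was the unnamed model HAG_042781, which overlaps the end of Ngp on the opposite strand (chromosome 9 from 110325020 to 110325886). Without strand information its reads cannot be told apart from those of Ngp. Next came Cd177, a neutrophil surface glycoprotein (distance 0.81), with 144 (young 13), 447.5 (young 14), 22.5 (old 13) and 215.5 (old 14). Fcnb, a ficolin of bone marrow myeloid cells (1.11), was 77.5, 289, 16.5 and 108, and Mmp9, the gelatinase of tertiary granules (1.43), was 35, 349, 4.5 and 38. The others were the row of Ear12 and Ear2 (eosinophil-associated ribonucleases), Ifitm6, Hsd11b1, Abca13, the row of Ear6 and Ear7, and Dcn, at distances between 1.57 and 1.85. Of these 10 genes 0 passed in limma, against 2.55% of tested genes, with adjusted p between 0.288 and 0.629. They were picked for a profile with a wide spread between old 13 and old 14, so their choice largely set this outcome. The members themselves lay between 0.34 (S100a9) and 2.31 (Retnlg).

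Other late granule genes were highest in young 14 in 11 of 12 and lowest in old 13 in 9 of 12. Of all tested genes 6.92% had both. The shares with either alone were not taken, here or for the lists below. Their median log2 difference between the replicates of an age was 1.58 in old and 1.63 in young cells, beside 3.93 and 1.06 for the 8 granule genes. None of the 12 passed in limma (unadjusted p under 0.05 in 2), and 10 had a fitted change below 0 (median log2 fold change -0.85). Over all 18318 tested genes 2573 had an unadjusted p under 0.05 in limma in either direction, the background for this and the lists below. Hp, the haemoglobin-binding haptoglobin, had 332 (young 13), 1132 (young 14), 231.5 (old 13) and 765 (old 14). Pglyrp1, a peptidoglycan-binding protein, was 254, 454, 207 and 368. Slpi, an inhibitor of neutrophil elastase, was 73, 445.5, 166.5 and 413.5 and was lowest in young 13. Old 13 thus lay below young 13 in Pglyrp1 by a smaller factor than in any of the 8 granule genes. That did not hold for the whole list. Cd177 had 144 in young 13 and 22.5 in old 13, and Mmp9 had 35 and 4.5. Both factors were larger than those of Retnlg (2.78-fold) and Chi3l3 (4.86-fold).

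Primary granule genes, which belong to an earlier stage, had a smaller fitted change. Of 11 tested, 0 passed in limma (unadjusted p under 0.05 in 2), 8 lay below 0, and the median log2 fold change was -0.20. Mpo, myeloperoxidase, had 3598 (young 13), 27762 (young 14), 4428 (old 13) and 10022 (old 14). Prtn3, proteinase 3, was 4457, 6940, 7701 and 9945, and Lyz2, lysozyme, was 7890, 16822, 7721 and 13045. Young 14 was highest in 8 of the 11 genes and old 13 lowest in 5.

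Among 11 tested neutrophil surface genes and 6 genes of the oxidase that makes superoxide, 0 passed in limma (unadjusted p under 0.05 in 2 of each list). Csf3r, the G-CSF receptor, which stem cells also carry, had 5728 (young 13), 4640 (young 14), 6770 (old 13) and 5473 (old 14). Itgam, the CD11b integrin chain, was 520.5, 1350, 226.5 and 496.5, and Cybb, the catalytic subunit of the oxidase, was 329, 2882.5, 292 and 1391. Of 8 tested granulocyte transcription factors 0 passed (limma; unadjusted p under 0.05 in 0). Gfi1, a repressor needed for neutrophil development, was 680.5, 668, 679.5 and 701. Cebpe, which encodes C/EBP epsilon and was named after its values were seen, was 49, 138.5, 21 and 54.

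Of 6 tested genes that encode receptors or binding partners of the granule proteins 0 passed in limma (unadjusted p under 0.05 in 1). Their fitted changes were below 0 in 3 and above 0 in 3. Tlr4, a receptor for S100A8 and S100A9, had 1362.5 (young 13), 1578.5 (young 14), 1578 (old 13) and 2617.5 (old 14). Ager, also on this list, was 94, 81, 80.5 and 35 in the same order, both old values below both young ones. Lrp1, named after its values were seen, was the gene with an unadjusted p under 0.05 (adjusted p = 0.0935 in limma). It was lower in both old replicates, with 598.5, 916.5, 388 and 354 in the same order. Other S100 genes mostly had fitted changes above 0: 7 of 8 tested on the list did, or 6 of 7 without S100pbp, which is no S100 gene; 0 of the 8 passed in limma (unadjusted p under 0.05 in 2), and the median log2 fold change over the 8 was 0.44. S100a6, a calcium-binding protein of many tissues, was 740, 1261.5, 1716 and 2821.5, both old values above both young ones.

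Markers of other cells that such a sort could hold also differed between replicates, and their part in the granule gene values was not tested. The 9 eosinophil, basophil and mast cell markers were all highest in young 14, and their summed value had 2555 (young 13), 25375 (young 14), 2263 (old 13) and 7989 (old 14). The 13 monocyte and macrophage markers summed to 2710, 9350, 2464 and 5526. The 16 stress genes matched, which include Fos and Egr1 and are not markers of a cell type, summed to 22588, 195547, 16268 and 41327. Of their 17 tested rows 15 were highest in young 14 and 15 lowest in old 13. No gene of these 3 lists passed in limma; 0, 6 and 3 had an unadjusted p under 0.05. The 8 B cell markers summed to between 1163 and 1277, the 6 platelet markers to between 18852 and 24417, and the 10 T and NK cell markers to 843.5, 1024.5, 2944.5 and 4511.5. The difference in the T and NK sum was carried by Klrb1c, an NK cell receptor, which alone of 5 tested rose (limma, adjusted p = 0.00363); the other 9 summed to 471, 554.5, 449.5 and 475.5. Most of the B cell sum was Cd79b, and the other 7 summed to 130, 218.5, 211 and 63.5. Erythroid markers summed to 4637, 3854, 2045 and 2934, and 3 of 8 tested rows fell (limma, adjusted p under 0.05).

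**Figure D4:**
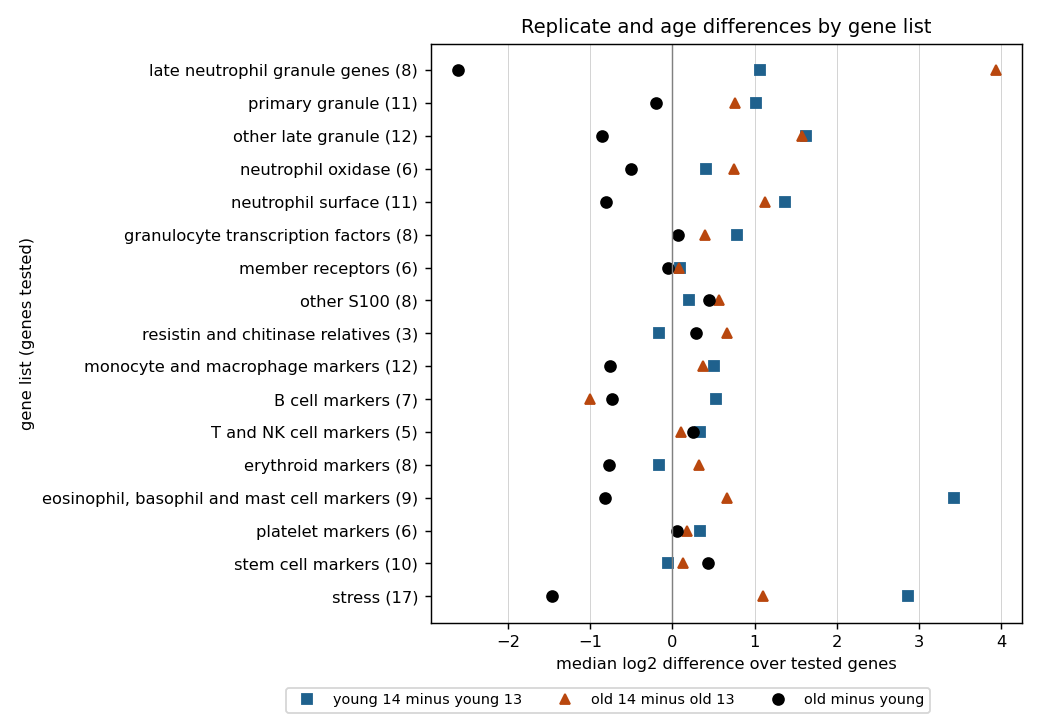
Median log2 difference over the tested genes of each list between young 14 and young 13 (squares), old 14 and old 13 (triangles) and old and young cells (circles). The late neutrophil granule genes have the highest triangle, 3.93, and the lowest circle, -2.61, while the stem cell markers lie near 0 in both replicate differences.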

How the data were processed

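PolyA-selected RNA of sorted stem cells was read on an Illumina instrument, per the design text. Per the submitters' processing notes the build was mm9 and DESeq was used, with neither version nor role; no aligner or counter is given in the sources used here. The deposited values named like counts are treated as a score: 4 of 8 libraries hold no gene at some whole numbers up to 100, so a per-library factor and rounding were applied to reads by the authors. The deposited FPKM equals this score times 1 constant per gene. The authors' deposited table also gives a log2 fold change and an FDR (adjusted p-value).

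Each replicate's technical libraries were merged by their mean. The fit used limma 3.58.1 under R 4.3.3 on log2(value + 0.5), with the trend option and no term but age. It was two-sided, with Benjamini-Hochberg adjustment over 18318 rows, and was tested on simulated data. The simulation drew variances from limma's own fit and independent noise for each gene. It could therefore not test how the fit handles differences that many genes share between replicates. Genes named were the 8 members, Kit, Slamf1 and Ly6a of the sort, and up to 4 of the most abundant per list by FPKM. The 10 nearest in profile were named too, and exceptions are stated beside them. Symbols were matched as written; Spi1, Il8rb, Chi3l7 and Ahsp were not matched. The members and lists were chosen with earlier results of these data known. Promoter sequences are from RefSeq, and all 8 members matched. Protein comparisons were not made. Alternatives covered libraries, pseudocount, filter, scaling, test, replicate block and left-out replicates.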

Additional observations from a re-analysis of the deposited data

How the results depend on the processing

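With all 4 replicates, 467 genes passed over all tested and 0 of the 8 granule genes. The count over all genes was 293 with the lower-numbered technical libraries, 302 at a mean FPKM of at least 1, 0 with no filter on low values (2943 at an unadjusted p under 0.05 in limma) and between 0 and 274 with 1 replicate left out; it was 0 without old 13 (3669 at an unadjusted p under 0.05) and without old 14 (1933). The number of granule genes that passed ranged from 0 to 1 with 1 replicate left out (Retnlg, without young 13). Fits with 1 replicate left out assume that the lone sample varies like the other age. The replicate number as a block gave 2766 genes and all 8 granule genes; young 13 minus 14 and old 13 minus 14 correlated at 0.54 over tested genes, but the labels do not say that a number marks a shared batch, so the numbers were not used as pairs. Entering 8 libraries as independent, an alternative chosen after seeing the data, gave 3690 genes and 1 granule gene. Of 112 granule gene values under 14 alternatives 110 kept their sign. The filter and block settings cannot change a fitted log2 fold change, and most others reuse all 4 replicates. That count was therefore largely set in advance. Both reversals came with 1 replicate left out, Chi3l3 without old 13 and Retnlg without young 14. Over the fits with 1 replicate left out, Chi3l3 ranged from -3.23 to 0.94 and Retnlg from -4.68 to 0.046. The cause was not tested. Granule gene values in the first library of old 13 rest on few reads, which limits their precision. Reads in its second library were not estimated.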
